A study of Mus musculus with 10 samples.

Results

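Adam19 and Adamts16 are metalloprotease genes of related families that the 2 deposited lists of differential H3K27ac regions place on opposite sides in mouse brain macrophages. Every listed region was taken whose midpoint lay inside one of these genes, or for which one of them was the protein-coding gene with the nearest end within 100 kb. The rule found 16 of 1320 regions: 5 of 428 in the MDM list, all at Adam19, and 11 of 892 in the YSM list, all at Adamts16. The genes were chosen by these counts of assigned regions, which are therefore a description and carry no test.

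The regions come from CUT&Tag, in which an antibody guides a transposase to cut DNA beside a histone mark, here H3K27 acetylation of active promoters and enhancers. Brain parenchymal macrophages were sorted from Ms4a3Cre:R26-tdTomato mice, which all carried the treatment label DR-3x, not explained in the labels, and gave 4 MDM and 4 YSM libraries. The series title spells out MDM as monocyte-derived macrophages, YSM is left unexplained, the labels used here give no age, and they do not say whether libraries came from separate animals. Cre under Ms4a3 labels cells descended from granulocyte and monocyte progenitors, as background, so the reporter follows ancestry and not a present cell state. Regions in the list that carries a group's name are taken to have more H3K27ac in that group. The lists give no level, fold or value per library, so no error can be given for any region, read depth is unknown, and more cells with the mark cannot be told apart from more mark per cell.

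ADAM proteins are membrane-anchored proteases with a disintegrin domain that cut the outer part off other membrane proteins, a step called shedding. ADAM19, also called meltrin beta, sheds neuregulins, ligands of the ERBB receptors. ADAMTS proteins lack the membrane anchor, are secreted, carry thrombospondin type 1 repeats and act on the extracellular matrix. Most of both families are made as inactive precursors, and furin-like convertases remove the prodomain. Macrophages use such proteases to release cytokines and receptors from the cell surface and to remodel matrix.

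Adam19 (gene 11492, chr11:46054502-46147347, GRCm38.p6, 92.8 kb) has 3 transcript starts in the RefSeq promoter table, all on the plus strand. The sequences of these starts are shown because the MDM regions covered 1 of them. The outermost start at 46054502 and the next at 46055984 lie 1.48 kb apart at the low end of the gene. The inner start at 46127904 lies 73.4 kb into the gene, at 79.1% of its length. The 250 bases before each start are given 5′ to 3′ from RefSeq (GRCm38.p6), together with those before the single annotated start of Adamts1, whose promoter window was covered by a YSM region. Of the 57 other genes with symbols starting Adam, 31 have a window in the table, and among these Adamts1 was the one with a covered window. Capitals mark matches to 8 motifs that were searched on both strands.
Adam19 outermost start (chr11:46054252-46054501, plus strand): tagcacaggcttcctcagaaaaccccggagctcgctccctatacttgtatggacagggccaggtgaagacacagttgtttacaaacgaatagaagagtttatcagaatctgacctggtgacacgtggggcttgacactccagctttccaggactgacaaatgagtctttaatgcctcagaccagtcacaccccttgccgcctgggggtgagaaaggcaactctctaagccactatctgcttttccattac
Adam19 next start (chr11:46055734-46055983, plus strand): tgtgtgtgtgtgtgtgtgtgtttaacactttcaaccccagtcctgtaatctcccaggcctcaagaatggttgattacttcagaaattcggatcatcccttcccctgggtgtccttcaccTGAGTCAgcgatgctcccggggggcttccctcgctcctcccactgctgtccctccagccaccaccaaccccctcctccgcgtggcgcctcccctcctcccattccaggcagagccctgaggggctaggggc
Adam19 inner start (chr11:46127654-46127903, plus strand): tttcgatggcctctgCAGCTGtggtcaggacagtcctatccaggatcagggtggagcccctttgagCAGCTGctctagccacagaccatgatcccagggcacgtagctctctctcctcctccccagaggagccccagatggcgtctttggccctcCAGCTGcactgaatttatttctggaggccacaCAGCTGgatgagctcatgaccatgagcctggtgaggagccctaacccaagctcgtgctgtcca
Adamts1 start (chr16:85803114-85803363, minus strand): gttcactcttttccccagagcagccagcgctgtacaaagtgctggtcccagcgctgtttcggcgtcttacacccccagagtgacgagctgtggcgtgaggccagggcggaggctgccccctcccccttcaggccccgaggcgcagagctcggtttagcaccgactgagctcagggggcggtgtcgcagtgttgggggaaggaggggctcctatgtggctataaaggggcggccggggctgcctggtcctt

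The MDM regions at Adam19 were all inside the gene and formed 3 groups of overlapping regions. The first region lay at chr11:46061020-46063020, with its midpoint 6.04 kb downstream of the second annotated start and at 8.1% of the gene's length. The next group, chr11:46075729-46078656, was made of 2 regions (46075729-46077729 and 46076656-46078656) that shared 1074 bases. Their midpoints lay 20.7 and 21.7 kb downstream of the second start. Neither group reached a promoter window of the 2 outer starts: the nearest region edge was 6.52 kb from the outermost start and 5.04 kb from the next.

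The remaining group, chr11:46126952-46129651, was at the inner start. It also consisted of 2 regions, 46126952-46128952 and 46127651-46129651, which shared 1302 bases, and each held the whole promoter window (from 250 bases before the start to 50 after). Their midpoints lay 48 and 747 bases downstream of that start. The regions that met an annotated Adam19 start were those at the inner start, while the starts at the low end of the gene had no listed region. Which transcripts were made was not measured.

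Gaps of 12.7 and 48.3 kb separated the 3 groups. From the first to the last base they spanned 68.6 kb, of which the regions covered 7.63 kb (11.1%). The microRNA gene Mir8100, also inside Adam19 (chr11:46102270-46102390), lay in the wider gap, 23.6 kb from the nearest region.

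**Figure D1:**
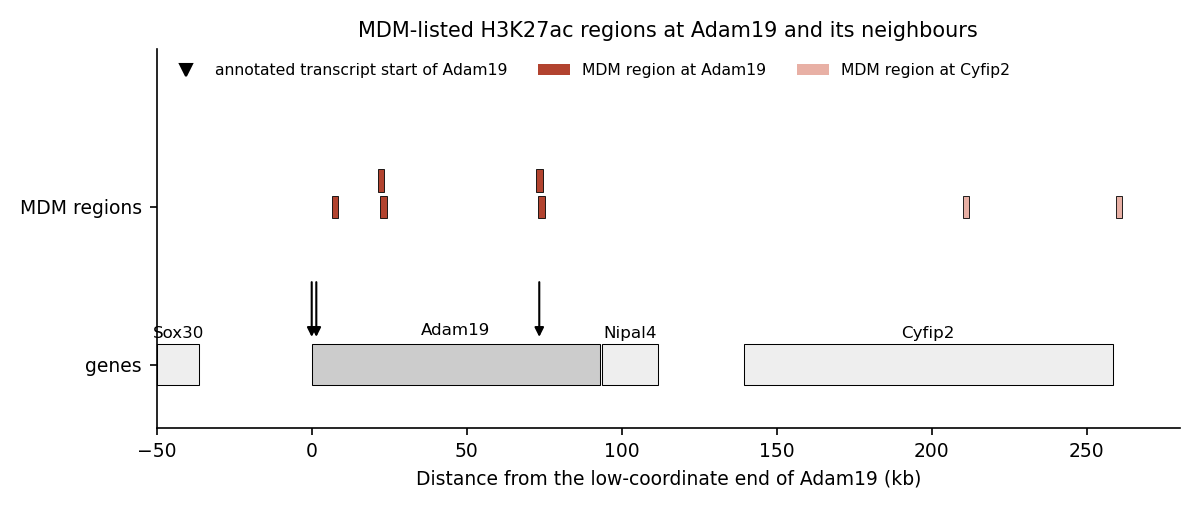
Map of the Adam19 locus by distance in kb from the low-coordinate end of the gene. Grey boxes are protein-coding genes (Sox30 is cut at the left edge), arrows the 3 annotated transcript starts of Adam19, dark red boxes the 5 MDM regions inside Adam19 and pale boxes the 2 MDM regions at Cyfip2; overlapping regions are drawn one above the other. The last 2 regions inside Adam19 sit over the inner start, 73.4 kb into the gene, and none sits over the 2 outer starts.

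The neighbours of Adam19 differed in whether they had regions. Below the gene lay Sox30, a transcription factor gene of the male germ line, after a gap of 36.5 kb, and Thg1l, a tRNA-modifying enzyme gene, after 99.0 kb. Above it lay Nipal4, after 0.807 kb, and Cyfip2, a subunit gene of the actin-regulating WAVE complex, after 46.5 kb. Sox30, Thg1l and Nipal4 had 0 regions of either list. Cyfip2 had 2 MDM regions, chr11:46264452-46266452 inside the gene and chr11:46313827-46315827 just past its high end, with midpoints 118 and 167 kb past the high end of Adam19. The nearest of them began 135 kb after the last Adam19 region. For the 231 MDM genes with another MDM region on their chromosome, the median gap to the next such region outside the gene's own was 2.76 Mb, and 91.3% had a gap as wide as that of Adam19 or wider. The nearest YSM region, chr11:45594572-45596572, lay 464 kb below the Adam19 regions and had no protein-coding gene within the limit.

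Adamts16 (gene 271127, chr13:70727798-70841845, 114 kb) showed another arrangement, with 2 regions inside the gene and 9 beyond its high end. The first inside region, chr13:70822839-70824839, had its midpoint at 84.2% of the gene's length, 18.0 kb from the high end. The second, chr13:70840660-70842660, covered the high end itself, with its midpoint 185 bases inside. A single region, chr13:70846078-70848078, followed 5.23 kb past the end. No listed region had its midpoint in the lower part of the gene, below the first of these. The strand and the starts of Adamts16 were not used here, so whether the high end is a transcript start is not stated.

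The other 8 regions at Adamts16 lay farther out in 3 compact groups. The first, chr13:70882972-70885582, held 2 regions with midpoints 42.1 and 42.7 kb past the gene's high end, which shared 1391 bases. The next, chr13:70901935-70905012, held 3 regions with midpoints 61.1, 61.5 and 62.2 kb past the end. The last, chr13:70932714-70936370, held 3 regions with midpoints 91.9, 92.4 and 93.5 kb past the end, close to the limit of 100 kb. Within these 3 groups, successive midpoints were 0.446 to 1.09 kb apart. Counted with the 3 single regions, the locus had 6 groups, separated by gaps of 15.8, 3.42, 34.9, 16.4 and 27.7 kb. They spanned 114 kb and covered 15.3 kb of it (13.5%), a share close to that at Adam19.

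Long noncoding RNA genes lay under 4 of the 11 regions. The region over the gene's high end and the single region after it were wholly within Gm36529 (chr13:70840450-70859609), which overlaps the high end of Adamts16 and starts on the plus strand 210 bases before the former. The 2 regions of the group 42 kb out covered 1532 of the 1556 bases (98.5%) of 8030423J24Rik (chr13:70882948-70884503), whose plus-strand start lay 24 bases before the group. The start of 8030423J24Rik itself was therefore just outside. With genes of every type taken into account, 3 regions rather than 11 belonged to Adamts16: for the other 8 the nearest gene end was that of a noncoding gene.

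**Figure D2:**
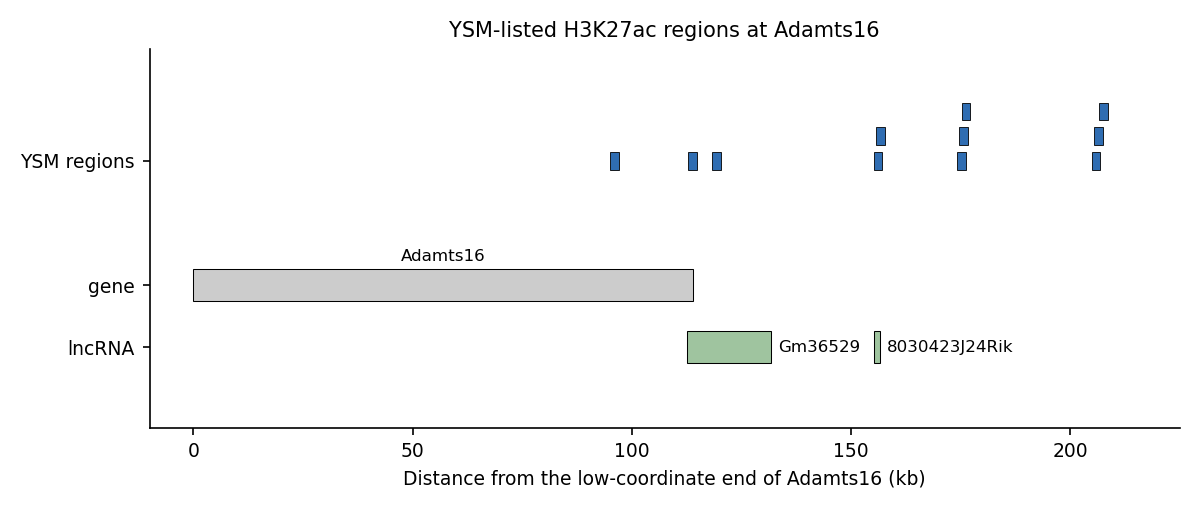
Map of the Adamts16 locus by distance in kb from the low-coordinate end of the gene. The grey box is Adamts16, green boxes are the long noncoding RNA genes Gm36529 and 8030423J24Rik, and blue boxes the 11 YSM regions, with overlapping regions drawn one above the other. Of these regions 2 lie inside the gene and 9 beyond its high end, the last group from 90.9 to 94.5 kb past it.

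Adamts16 lies in a stretch with few protein-coding genes. Below it came Ice1, which encodes a component of a complex that promotes the transcription of small nuclear RNAs, after 90.0 kb, and then Gm47655 after 720 kb. Above it came the Iroquois homeobox genes Irx1 after 1120 kb and Irx2 after 1780 kb. All 4 had 0 regions of either list. The next YSM region, inside Lpcat1, lay 2.56 Mb away. The median was 1.26 Mb for the 471 YSM genes with such a distance, and 27.8% of these genes had a gap as wide or wider. The nearest MDM region, near Ercc6l2, was 7.1 Mb away. Regions past the high end were thus assigned to Adamts16 because no other protein-coding gene was closer, and whether they act on it was not tested.

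Of 21887 protein-coding genes, 1.06% had a region of the MDM list and 2.16% a region of the YSM list by the same rule. Nothing is read from these shares for Adam19 and Adamts16 themselves, which were picked for having regions. Most listed genes had 1 region, 156 of 232 in the MDM list and 307 of 472 in the YSM list. By number of regions Adam19 ranked 4th in the MDM list, level with Syne1, and Adamts16 ranked 2nd in the YSM list, level with Ptprm. Many of these regions overlap. By number of groups Adam19 ranked 8th, as 1 of 6 MDM genes with 3 groups, and Adamts16 ranked 4th in the YSM list. Adam19 was among 7 of 11 MDM genes with 4 or more regions that had all of them inside the gene. With 9 regions outside, Adamts16 had more outside regions than any other YSM gene under this rule, ahead of Sox11 and Tcim with 5 each. That place depends on the rule: with a limit of 10 kb, or with genes of all types, Adamts16 kept 3 of its 11 regions. Sox11 and Tcim were not recounted under those settings. Long genes have more room for regions: the median length was 17.2 kb over all protein-coding genes, 86.6 kb over MDM genes and 73.5 kb over YSM genes. Adam19 was near the MDM median at 92.8 kb, and 9.31% of all genes were as long as Adamts16 or longer.

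**Figure D3:**
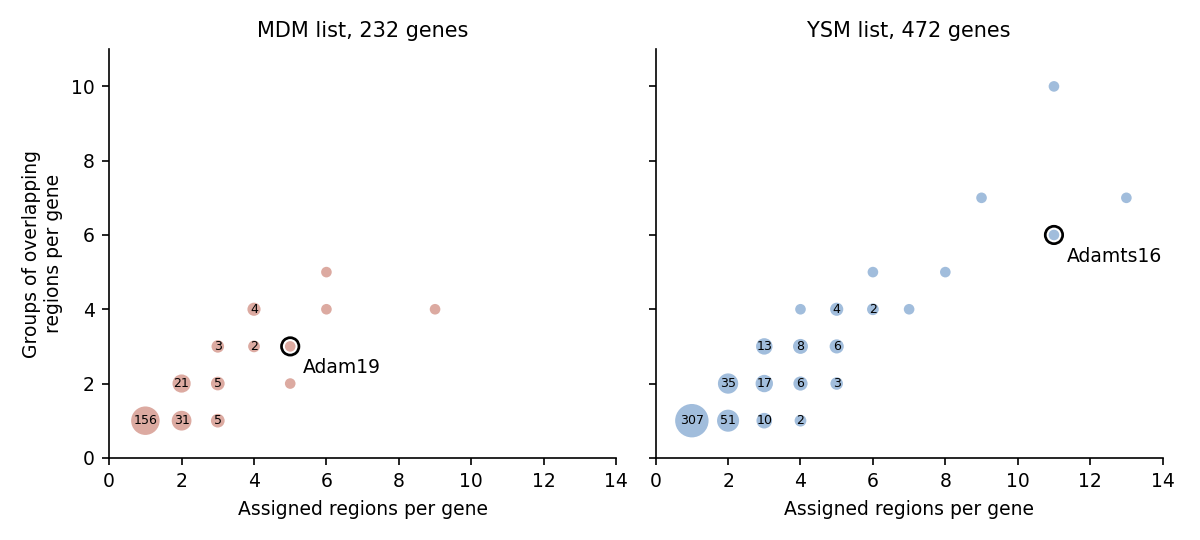
Assigned regions per gene (horizontal axis, count) against groups of overlapping regions per gene (vertical axis, count) for the 232 genes of the MDM list and the 472 of the YSM list. Each disc is a combination of both counts, its size grows with the number of genes there (printed where above 1), and circles mark Adam19 (5 regions, 3 groups) and Adamts16 (11 regions, 6 groups).

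The genes most like each member were those of the same list nearest in number of regions, then of groups, then in span. For Adam19 they were Syne1, which encodes the nuclear envelope protein nesprin-1 (5 regions in 2 groups over 97.0 kb), Fam110b (4 in 3 over 46.3 kb), the semaphorin receptor gene Plxna4 (4 in 3 over 329 kb), the kinase gene Lrrk2 (4 in 4 over 53.6 kb) and Serpinb2, a serine protease inhibitor gene (4 in 4 over 38.1 kb). In Syne1, Fam110b and Plxna4 all regions were inside the gene, as in Adam19, while Lrrk2 had 2 inside and Serpinb2 had 1. For Adamts16 they were the receptor phosphatase gene Ptprm (11 regions in 10 groups over 223 kb), the junction scaffold gene Magi1 (9 in 7 over 127 kb), the transcription factor gene Klf12 (13 in 7 over 354 kb), Tcim (8 in 5 over 74.2 kb) and the collagen gene Col25a1 (7 in 4 over 183 kb). Ptprm, Magi1, Klf12 and Col25a1 had 10, 8, 12 and 7 of their regions inside the gene. Tcim had 3 of 8 inside and was the nearest to Adamts16 in this respect.

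Position relative to annotated starts was also compared with all listed regions on chromosomes that the promoter table covers. A whole promoter window was held by 44 of 417 MDM regions (10.6%) and 89 of 842 YSM regions (10.6%). At Adam19 2 of 5 regions held one, but these 2 overlap and hold the same window, that of the inner start. No Adamts16 region could hold a window of its own gene, since the table has none for Adamts16, so that gene is not compared here. The median distance from a midpoint to the nearest start in the promoter table was 30.0 kb in the MDM list and 26.4 kb in the YSM list. It was 6.04 kb over the 5 Adam19 regions, whose nearest starts were those of Adam19 itself. The table lacks many genes: of the 57 other Adam genes, 31 have a window in it, while Adam19 has 3. Regions of both lists can therefore lie nearer to starts than these medians and shares show, and Adam19 is not ranked against them. The distances of the 11 Adamts16 regions are to the starts of Gm36529 and 8030423J24Rik only and cannot be set against these medians. An inner start as the one covered was not particular to Adam19. Among protein-coding genes with several annotated starts of which an MDM region held at least 1 window, 4 of 6 had a region only at an inner one: Ltbp1, Adam19, Kcnab2 and Piwil4. In the YSM list this was so for 6 of 15 such genes. The inner start lay 73.4 kb from the outermost in Adam19 and 173 kb in Ltbp1, which encodes a binding protein of latent TGF-beta.

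**Figure D4:**
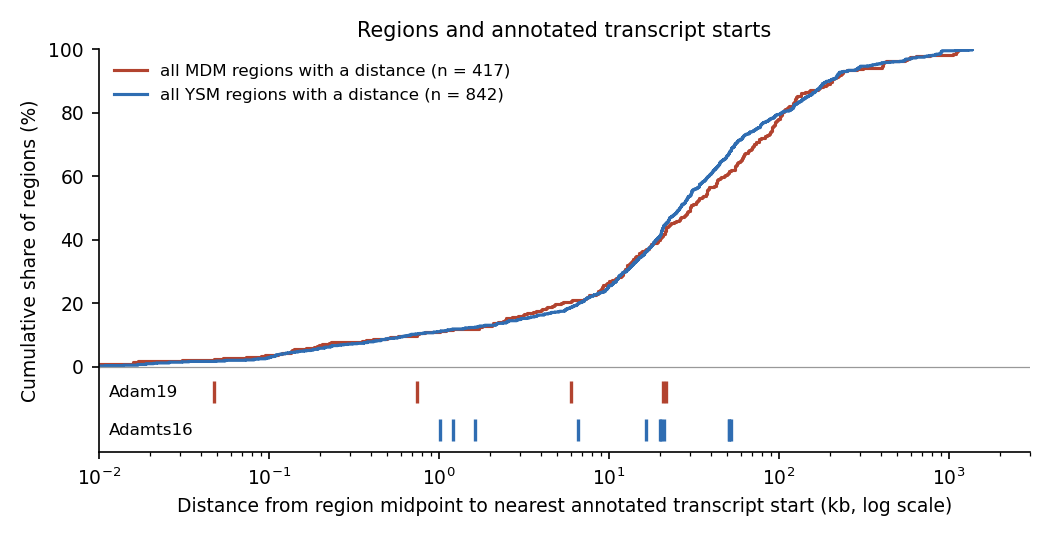
Cumulative share of regions (vertical axis, percent) by distance from the region midpoint to the nearest transcript start in the promoter table (horizontal axis, kb, log scale), for 417 MDM and 842 YSM regions. Ticks under the curves mark the 5 Adam19 regions, between 0.048 and 21.7 kb, and the 11 Adamts16 regions, between 1.02 and 52.4 kb from starts of noncoding genes, the table holding none of Adamts16; values under 0.01 kb are drawn at the left edge.

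The 8 motifs searched were PU.1 (GAGGAAGT), AP-1 (TGANTCA), C/EBP (TTGCNNAA), IRF (GAAA and GAAA with 2 bases between), RUNX (TGTGGTTT), MEF2 (CTA and ATAG with 3 bases between), SMAD (GTCTAGAC) and an E-box (CAGCTG), where N stands for any base. Each was searched on both strands in the 250 bases before a start, and no 2 matches overlapped in the sequences shown. The sequence before the inner Adam19 start, the one under MDM regions, had 4 E-box matches, whose first bases lay 235, 184, 95 and 63 bases before the start, and no match to the other 7 motifs. At least 1 E-box match occurred in 13.0% of the 32851 windows and in 11 of 39 windows held by an MDM region. Windows with 4 or more numbered 5 of 32851 (0.0152%), a cutoff set after the Adam19 count was seen, and no other window held by an MDM region had more than 1. The second Adam19 start had 1 AP-1 match, from 131 to 125 bases before it, and AP-1 matched 6.75% of all windows. The outermost Adam19 start and the Adamts1 start had none of the 8. A match is a description of letters, and the factors were not measured.

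The 250 bases before the inner start of Adam19 had 58.4% G and C with 4 CpG pairs. Medians were 52.0% and 5 pairs over the 39 windows held by an MDM region and 52.4% and 6 pairs over all windows, so its number of CpG pairs was close to that of other MDM windows. The outermost Adam19 start had 50.0% with 5 pairs and the next 60.0% with 7. The Adamts1 start had 65.6% with 15 pairs, and windows held by YSM regions had medians of 57.2% and 11 pairs.

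Apart from Adam19 and Adamts16, 57 protein-coding genes have symbols starting Adam, and 3 of them (5.26%) had YSM regions while 0 had MDM regions. The backgrounds were 2.16% and 1.06%. In 57 genes the MDM background comes to under 1 gene, so a count of 0 says little. The YSM share rests on 3 genes, too few to be read as above its background. Adamts1, a secreted protease that cuts proteoglycans such as versican, had 3 YSM regions in 1 group at its start. They lay at chr16:85799932-85801932, chr16:85800417-85802417 and chr16:85802210-85804210 and together spanned 4.28 kb, more than the widest group at Adamts16 (3.66 kb). The last of them held the promoter window printed above, with its midpoint 97 bases outside the gene (chr16:85793827-85803113). Adamts17, a secreted protease gene mutated in a form of Weill-Marchesani syndrome, had 2 overlapping YSM regions deep inside a gene of 313 kb (chr7:67043245-67045493), both about 109 kb from the nearest gene end. Adam32, a family member expressed in testis, had 1 YSM region inside the gene, 10.0 kb from its end (chr8:24937906-24939906).

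By family, 1 of 33 other Adam genes (3.03%), 2 of 18 other Adamts genes (11.1%) and 0 of 6 Adamtsl and Adamdec1 genes had a region. All were YSM regions, which 2.16% of all protein-coding genes had, and counts this small show no contrast between families. With Adam19 and Adamts16 counted, MDM regions lay at 1 and YSM regions at 1 of 34 Adam genes, and YSM regions at 3 and MDM regions at 0 of 19 Adamts genes. The other Adamts genes were long, with a median of 114 kb against 17.2 kb over all protein-coding genes, which bears on how many regions they can hold, and its part in the count was not tested. None of these genes had regions of both lists. Adamts16 and Adamts1 therefore shared a list. Under this rule Adamts16 had groups spread over 114 kb and Adamts1 had 1 group at its start. With a limit of 10 kb, or with genes of all types, Adamts16 kept 3 of its 11 regions. Its transcript starts were not used, so whether a group lay at one of them is not stated.

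Over 7 lists of other proteases, inhibitors, partners and substrates, 3 of 95 genes (3.16%) had MDM regions and 3 (3.16%) had YSM regions, against 1.06% and 2.16% of all protein-coding genes. Among 23 matrix metalloproteinase genes, Mmp27 had 1 MDM region, 1.34 kb from a gene end and within the gene (chr9:7571737-7573737), and 0 had YSM regions. Of 10 genes for metalloprotease inhibitors, Spock1, which encodes the proteoglycan testican-1, had 3 YSM regions inside the gene, the nearest 101 kb from an end (chr13:57521316-57523316). Among the 15 neuregulin and EGF-type ligands and ERBB receptors, the pathway of the best known ADAM19 substrates, the ligand gene Btc (betacellulin) had 1 MDM region, 78.5 kb from the gene (chr5:91277763-91279763), and Nrg1 and the receptors had 0 regions. Of 9 partners and regulators of ADAM proteases, Tspan14, a tetraspanin that binds ADAM10, had 1 YSM region 1.62 kb from the gene (chr14:40903803-40905803). The 9 proprotein convertases, furin included, and the 6 astacin proteases had 0. Of 23 matrix substrate genes, the fibrillin gene Fbn2 had 4 YSM regions in 3 groups inside the gene and the tenascin gene Tnr had 1 MDM region (chr1:159811970-159813970). In each of these lists at most 1 gene had a region of a given list, so none shows a direction for a group of genes.

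The lists hold only regions that differed, and they cannot show whether a marker was active in both groups. The 10 general macrophage markers had 0 regions in either list. Of 49 markers of other cell types in 7 lists, 2 had MDM regions (the neutrophil marker Retnlg and the border macrophage marker Cd163, 1 each). YSM regions lay at 4 of them: the astrocyte transporter gene Slc1a3 with 6, the neuronal gene Snap25 with 2, and the oligodendrocyte genes Mbp and Mog with 1 each. Neuron, astrocyte and oligodendrocyte lists thus had YSM regions at 1 of 8, 1 of 6 and 2 of 7 genes. Together this was 4 of 21 (19.0%), against 2.16% of all protein-coding genes. Only these 3 of the 7 lists had YSM regions, so joining them gives a higher share than the 4 of 49 over all 7. The regions at Snap25 and Mog lay outside those genes, 33.4 to 34.6 kb and 5.47 kb from an end. The neuron, astrocyte and oligodendrocyte lists had MDM regions at 0 of 21, against 1.06%. The endothelial and lymphocyte lists had 0 of either. The part of other cell types in the regions at Adam19 and Adamts16 was not tested.

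The deposited score was 1 for each of the 16 regions. Region names end in a whole number with no stated meaning. At Adam19 this number was 4 in all but 1 region, where it was 2, and at Adamts16 it ran from 1 to 3. The medians, 4 and 2, were those of the whole MDM and YSM lists.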

How the data were processed

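H3K27ac CUT&Tag was run on 4 MDM and 4 YSM libraries, and the values come from 2 region lists that the authors deposited after a test between these groups. The deposited score of a region is a whole number of unstated meaning, and the lists have no header. Build mm10 and the tools HOMER, Picard, Bowtie2 2.2.5 and Trimmomatic 0.39 are named, without their roles, per the submitters' processing notes. Neither the threshold nor the direction of the authors' test is stated in these sources, and read depth is unknown.

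Deposited starts were shifted by 1 base to count from 1. Regions were assigned with Python 3.11.15 and pandas 2.3.3 to protein-coding genes of a RefSeq table of GRCm38.p6 (the mm10 assembly), 21887 without the mitochondrial genome, if the midpoint was inside the gene or if it had the nearest gene end within 100 kb. A region can therefore belong to more than 1 gene. Overlapping or touching regions were joined into groups. A RefSeq table of 32851 promoter windows gave strands and transcript starts, and matched Adam19 but not Adamts16. Regions on chromosome 18 (11 MDM and 50 YSM) were not used with these windows. Motifs were searched in the 250 bases before each start. Exons, introns, the region sequences and the planned protein features were not used here. Assignment, joining and motif search were tested on simulated data.

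The members and gene lists were chosen with earlier results of these data known. Named genes were the members, every other gene with a symbol starting Adam that had a region, members of the pathway lists that had a region, the nearest 2 protein-coding genes on each side, and the 5 genes of the same list closest in number of regions (ties by groups, span and symbol). Ltbp1, Kcnab2, Piwil4, Sox11, Gm36529, 8030423J24Rik and the genes named beside a distance to the next region were named after their values were seen. So were the cell type markers Retnlg, Cd163, Slc1a3, Snap25, Mbp and Mog, whose lists were set beforehand. No test was made, because the members were chosen from these lists and the lists hold no values per library.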

Additional observations from a re-analysis of the deposited data

How the results depend on the processing

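No paired analysis was possible because regions are listed without a value for any library. Leaving out single libraries was impossible for that reason too. The 5 regions of Adam19 were counted under a limit of 10 kb, with no distance limit, from region edges, with genes of all types and with name numbers of 2 or more alike. All 5 have midpoints inside the gene, so the settings of limit, edge and gene type could not lower this count. The 11 regions of Adamts16 became 3 with a limit of 10 kb and 3 with genes of all types, since 8 of them lie beyond 10 kb and nearer to the end of a noncoding gene. They became 7 with name numbers of 2 or more, because 4 of them have the number 1. With scores above 1 both genes had 0 regions, because all their scores are 1. Joining within 50 kb made 1 group at Adam19 in place of 3 and 1 at Adamts16 in place of 6. Joining within 5 or 10 kb left 3 and gave 5. Other family genes with a region stayed at 0 for MDM and 3 for YSM under both other limits, region edges and genes of all types. Each of the 3 had a region inside the gene, so these settings could not lower the YSM count. Of 26 alternatives over 6 results, 7 moved a count by over 1.5 times.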
